A study of Mus musculus with 10 samples.

Results

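The transcripts of 34 mouse genes that set the phosphorylation of tau were read in the hippocampus of hMapt mice. The genes are those on a fixed list of kinases, kinase activators, phosphatase subunits and enzymes that modify a phosphatase, matched by symbol, and each of the 34 had 1 row among the 21956 genes of the deposited table. RNA came from 10 mice at 6 months of age, all of the hMapt genotype, which carry the human tau gene MAPT. Of these, 5 had received 80 days earlier an injection of AAV-circTau6, an adeno-associated viral vector that delivers circTau6, a circular RNA made from the tau gene. The other 5 are labelled control, and the extraction protocol calls them control-injected without naming the vector or its content. The labels give neither the serotype, the promoter, the injection site nor the strain of the mice, and they do not say whether the mouse tau gene was kept. Values are from whole hippocampus, so fewer cells of a type and less RNA per cell cannot be told apart.

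Tau is a microtubule-binding protein of neurons that carries many phosphate groups at once. Kinases that act before proline, such as GSK3 and CDK5, and kinases that act elsewhere, such as the MARK family and casein kinases, add them, and protein phosphatase 2A (PP2A) removes most of them in the brain. PP2A is a complex of a catalytic subunit, a scaffold and an exchangeable regulatory subunit, and the methylation of its catalytic subunit bears on which regulatory subunits join. Heavily phosphorylated tau binds microtubules less well and makes up the tangles of Alzheimer's disease. Transcript levels say nothing directly on the activity of these enzymes, most of which are controlled after translation.

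Total counts were 14762952 to 17647138 per library. Markers of neurons and of hippocampal excitatory neurons were detected in all libraries, and their summed levels, 5949 to 6511 CPM in control and 5247 to 6399 CPM in circTau6 libraries for neurons, overlapped between the groups (CPM, counts scaled to library size). Summed choroid plexus markers were 71.4 CPM in control replicate 2 and 61.1 CPM in circTau6 replicate 5, against 1871 to 5457 CPM in the other 8 libraries. Log2 fold changes of the neuron markers ran from −0.12 for Map2 to −0.01 for Rbfox3. Summed microglia markers were 184 to 205 CPM in control and 200.2 to 219 CPM in circTau6 libraries. In edgeR, 4 of the 5 (Csf1r, Tmem119, Cx3cr1 and Aif1) were higher after circTau6 at an unadjusted p under 0.05. The other, P2ry12, had −0.03 with an unadjusted p of 0.797. Also under 0.05 were Neurod6 of hippocampal excitatory neurons, lower at −0.14, and Cspg4 of oligodendrocyte precursors, higher at 0.27. Of all genes tested, 4.42% were under 0.05. Adjusted p-values of the markers under 0.05 were all 0.981. The part of microglia in the differences of the 34 genes was not tested. The library of circTau6 replicate 3 stood apart from the other 9, over these genes and over genes in general. All 34 genes passed the filter on low counts, with 216 to 35861 counts per library, and for 33 of them every library held over 500 counts.

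None of the 34 genes passed the edgeR test between circTau6 and control mice over all 14396 genes tested, where likewise 0 genes, or 0%, passed. Adjusted p-values of the 34 genes lay between 0.981 and 0.999. At an unadjusted p under 0.05, edgeR listed 1 of the 34 genes, the casein kinase gene Csnk1a1, against 4.42% of all genes tested, and it was lower in circTau6 mice, as were 1.85% of all genes. In CPM the 2 groups overlapped in 34 of 34 genes, whereas they did not overlap in 0.841% of all genes. Other tools run on the same counts also called 0 of the 34: DESeq2, which called 14 genes or 0.0766% of those it tested, and limma voom, which called 0 genes, and each gave an unadjusted p under 0.05 to 1 of the 34, against 4.08% and 5.16% of all genes. The 34 log2 fold changes ran from −0.13 to 0.09 with a median of −0.01, beside a median of −0.0002 over all genes, and 12 were above and 22 below 0. Their median size was 0.03, against 0.05 in the 8555 genes at least as abundant as the lowest of the 34, a set not matched to them in abundance.

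The replicates set narrow limits on each gene. Standard errors of the log2 fold changes were 0.04 to 0.10 with a median of 0.05. The 95% intervals of the 34 differences, each taken alone, reached no lower than −18.5%, for the tau tubulin kinase gene Ttbk2, and no higher than 15.1%, for the kinase gene Mark1. For 33 of the 34 the interval held 0. The coefficient of variation over the 10 libraries ran from 2.64% for Csnk1d to 10.3% for Ttbk2, with a median of 5.16%. The median was 6.99% in the 8555 genes at least as abundant as Ppp2r1b, the lowest of the 34. Ppp2r1b had a mean of 15.6 CPM in control libraries and the next lowest, Lcmt1, had 38.0 CPM. The 8555 genes are thus not matched to the list in abundance.

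**Figure D1:**
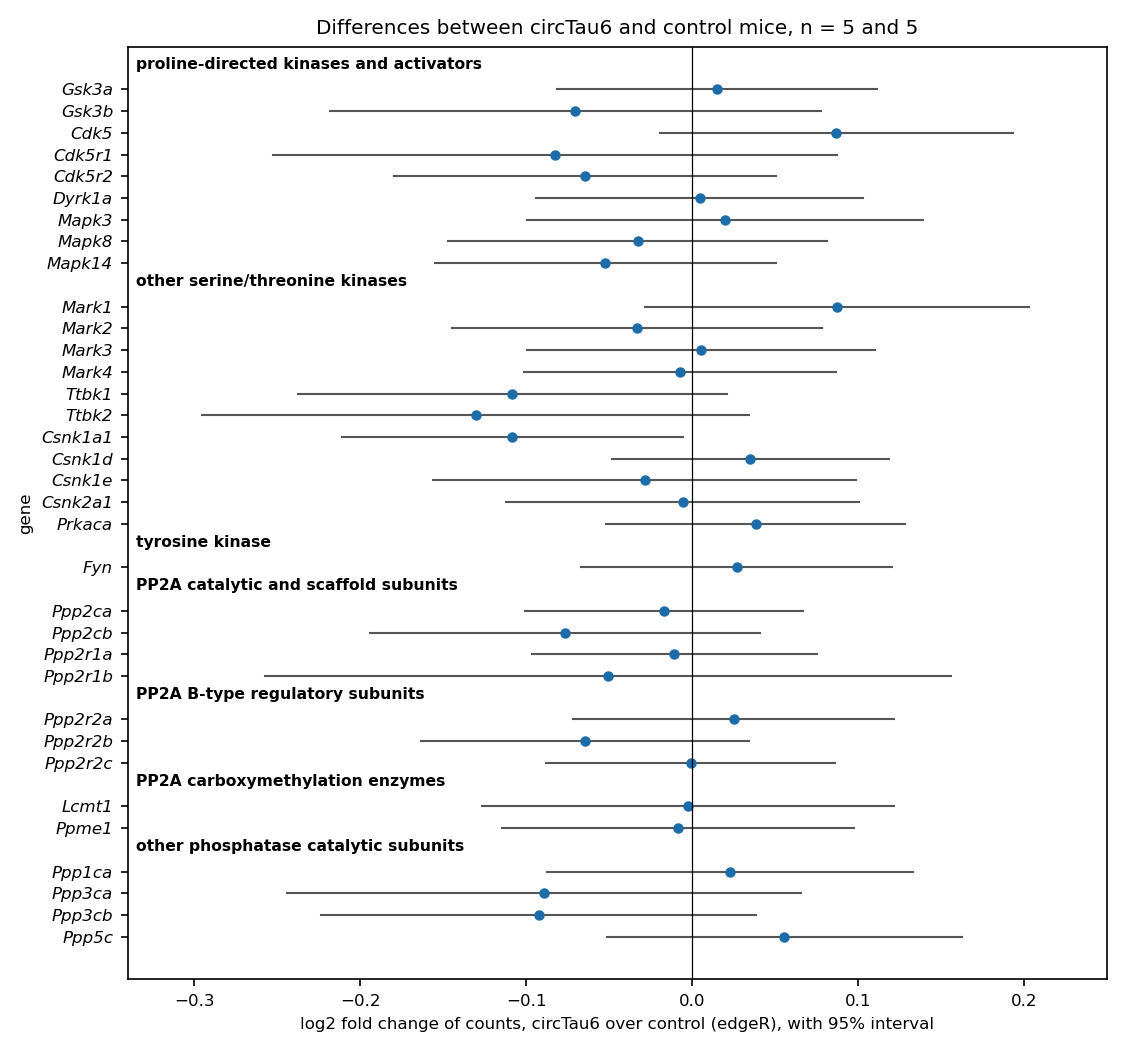
Log2 fold change of counts in circTau6 over control mice for the 34 genes, grouped by role, with the 95% interval of the edgeR fit (n = 5 and 5). Points lie between −0.13 and 0.09, and 33 of 34 intervals cross 0, the exception being Csnk1a1.

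Levels of different genes were compared in TPM, an abundance scaled to both transcript length and library total. These levels, and all shares within families, rest on the transcript lengths behind the deposited TPM, whose annotation is not given. The spread of levels over the list was wide. Ppp3ca, the alpha catalytic subunit of the calcium-activated phosphatase calcineurin, stood first with 1330 TPM ± 97.7 (SD, n = 5) in control libraries and 1288 TPM ± 93.2 (SD, n = 5) after circTau6, above 99.7% of the genes tested. Ppp2r1b, the beta scaffold of PP2A, stood last with 14.1 TPM ± 3.20 (SD, n = 5) and 12.2 TPM ± 1.56 (SD, n = 5). The median of the 34 genes was 99.7 TPM. Of the 33 pairs of neighbours in this order, 26 had ranges over the 10 libraries that overlapped, and 7 were apart. Those 7 gaps set off Ppp3ca, then Ppp2r1a, then a group of Csnk1a1, Ppp3cb and Ppp2r2c, and at the lower end Ttbk1 with Mark1, Ttbk2 and Ppp2r1b, with a further gap between Prkaca and Ppp2ca. Of the 34 genes, 24 held the same rank in both groups, and none moved by more than 2 ranks.

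**Figure D2:**
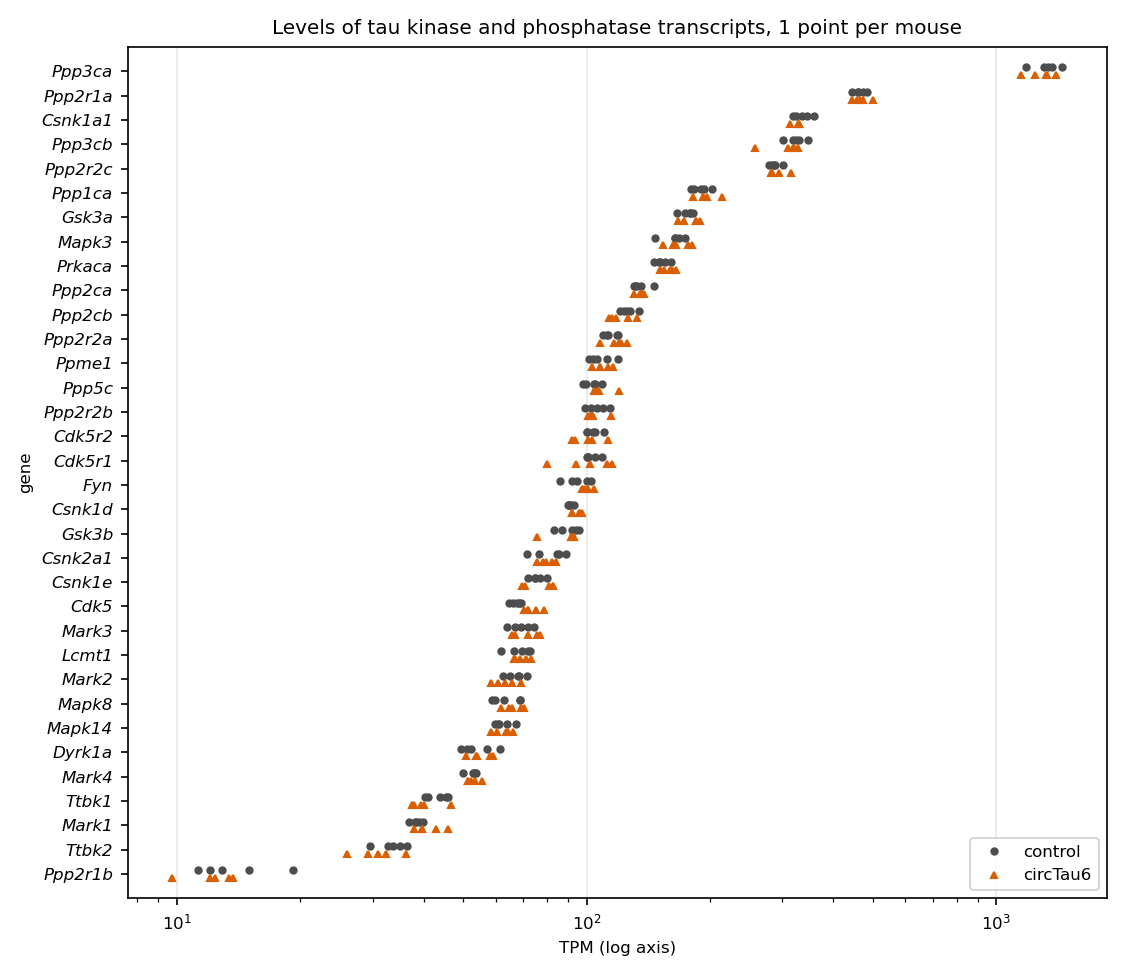
TPM of the 34 genes on a log axis, 1 point for each of the 10 mice, control as dark circles and circTau6 as orange triangles, ordered by mean level. Control means run from 1330 TPM for Ppp3ca to 14.1 TPM for Ppp2r1b, and the 2 groups overlap in every gene but Cdk5.

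Among kinases that act before proline and their activators, 9 genes in all, 0 passed the test and 0 had an unadjusted p under 0.05 in edgeR. The lowest p in this group belonged to Cdk5, the neuronal cyclin-dependent kinase, with 54.9, 53.4, 58.4, 55.4 and 56.1 CPM in control replicates 1 to 5 and 57.7, 58.4, 64.2, 56.5 and 58.7 CPM in circTau6 replicates 1 to 5. The groups overlapped, with 3 of 5 circTau6 libraries above every control, and the highest was circTau6 replicate 3. The log2 fold change was 0.09 ± 0.05 (SE), with an unadjusted p of 0.102 and an adjusted p of 0.981 in edgeR. Without circTau6 replicate 3 it was 0.05 with an unadjusted p of 0.261. In TPM the 2 groups of Cdk5 did not overlap, with 66.0, 64.4, 69.1, 68.5 and 67.6 TPM in control and 72.1, 70.1, 78.5, 71.8 and 75.2 TPM in circTau6 libraries. It was the only one of the 34 genes apart in TPM, against 0.563% of all genes tested that were higher and apart, while 0.181% were lower and apart. The fit of log2(TPM + 1) with limma gave Cdk5 a log2 difference of 0.13 with an unadjusted p of 0.0107 and an adjusted p of 0.931. The authors' deposited table lists a p of 0.0735 and an FDR of 0.987 for Cdk5, and there 0 of the 34 genes have an FDR under 0.05, against 0.0364% of all genes. Cdk5 (ENSMUSG00000028969) lies on chromosome 5 from 24418241 to 24423530 on the minus strand in GRCm38, matched by gene ID.

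The activators of CDK5, p35 from Cdk5r1 and p39 from Cdk5r2, had fold changes of the opposite sign to Cdk5, and both of their intervals held 0. Cdk5r1 had 162, 170, 159, 169 and 167 CPM in control and 168, 160, 124, 148 and 180 CPM in circTau6 libraries. The library of circTau6 replicate 3 was the lowest of all 10 and circTau6 replicate 5 the highest, so the treated mice spread on both sides of the controls. Its log2 fold change was −0.08 ± 0.08 (SE), and it was −0.01 without circTau6 replicate 3 and −0.14 without circTau6 replicate 5. Cdk5r2 had 104 to 126 CPM over the circTau6 and 114 to 124 CPM over the control libraries, with a log2 fold change of −0.06 ± 0.05 (SE). In TPM the 2 activators were present in like amounts, with Cdk5r1 at 49.9% ± 0.475 (SD, n = 5) of their summed TPM in control mice and 49.9% ± 3.00 (SD, n = 5) in circTau6 mice. In counts, which are not scaled to length, Cdk5r1 had a mean of 165 CPM and Cdk5r2 118 CPM in control libraries.

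The GSK3 kinases, which phosphorylate tau at many of the sites found in tangles, are made from Gsk3a and Gsk3b. Gsk3a, the highest of the proline-directed group in TPM, had 159, 165, 166, 154 and 163 CPM in control and 152, 170, 168, 156 and 170 CPM in circTau6 libraries. The values interleaved, and the log2 fold change was 0.02 ± 0.05 (SE). Gsk3b had 229, 269, 244, 250 and 256 CPM in control and 253, 249, 194, 238 and 255 CPM in circTau6 libraries. A single library, circTau6 replicate 3, lay below all others, and the log2 fold change of −0.07 ± 0.07 (SE) was −0.01 without it. Gsk3b made up 33.97% ± 1.39 (SD, n = 5) of the summed GSK3 TPM in control mice and 33.1% ± 2.53 (SD, n = 5) in circTau6 mice. The remaining proline-directed kinases had log2 fold changes of 0.0045 for Dyrk1a, a kinase gene of the Down syndrome region in humans, 0.02 for Mapk3, which encodes ERK1, −0.03 for Mapk8, which encodes JNK1, and −0.05 for Mapk14, which encodes p38 alpha.

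Among the other serine and threonine kinases, 11 genes, 0 passed the edgeR test and 1 had an unadjusted p under 0.05. That gene was Csnk1a1 (ENSMUSG00000024576, chromosome 18 from 61555274 to 61590061 on the plus strand in GRCm38), which encodes casein kinase 1 alpha and was the most abundant kinase of the list with 336 TPM ± 16.2 (SD, n = 5) in control libraries and 326 TPM ± 6.56 (SD, n = 5) after circTau6. It had 386, 407, 403, 412 and 375 CPM in control and 377, 377, 327, 372 and 386 CPM in circTau6 libraries. Only 2 of 5 circTau6 libraries lay below every control, and circTau6 replicate 3 was far below the rest of its group. The log2 fold change was −0.11 ± 0.05 (SE), a difference of −7.24% with a 95% interval from −13.6% to −0.39%, and edgeR gave p values of 0.0399 before and 0.981 after adjustment. Without circTau6 replicate 3 the log2 fold change was −0.07 with an unadjusted p of 0.0789. In the limma fit of log2(TPM + 1) it was −0.04 with an unadjusted p of 0.262. The authors' deposited values for Csnk1a1 are a log2 fold change of −0.045, a p of 0.618 and an FDR of 0.987, from a test that is not stated.

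The casein kinase 1 delta and epsilon genes had smaller differences than Csnk1a1. Csnk1d had 130 to 139 CPM in circTau6 and 126 to 133 CPM in control libraries, which gave 0.04 ± 0.04 (SE) on the log2 scale. The log2 fold change of Csnk1e was −0.03 ± 0.06 (SE). Csnk1d held 54.7% ± 1.17 (SD, n = 5) of their summed TPM in control mice and 55.1% ± 2.70 (SD, n = 5) in circTau6 mice. Csnk2a1, a catalytic subunit of casein kinase 2, had a log2 fold change of −0.01 ± 0.05 (SE). Prkaca, a catalytic subunit of protein kinase A, had 0.04 ± 0.04 (SE).

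The tau tubulin kinase genes encode enzymes that phosphorylate both tau and tubulin, and with Csnk1a1 they had the most negative fold changes of the list. Ttbk1, a kinase found mainly in neurons, had 125, 142, 126, 138 and 143 CPM in control and 117, 126, 118, 121 and 143 CPM in circTau6 libraries. Ttbk2, whose human form is mutated in a spinocerebellar ataxia, had 146, 149, 134, 156 and 162 CPM in control and 137, 144, 115, 128 and 159 CPM in circTau6 libraries. For both genes circTau6 replicate 5 lay at the upper end of the control range, and for both the other circTau6 libraries lay at or below 126 and 144 CPM. The log2 fold changes were −0.11 ± 0.06 (SE) for Ttbk1 and −0.13 ± 0.08 (SE) for Ttbk2, with unadjusted p values of 0.0942 and 0.112 in edgeR. Without circTau6 replicate 5 they were −0.16 and −0.19 with unadjusted p values of 0.00854 and 0.0129, and edgeR gave both an adjusted p of 0.726. Without circTau6 replicate 3 the values of Ttbk1 and Ttbk2 were −0.09 and −0.08, with unadjusted p values of 0.165 and 0.256 in edgeR. The authors' deposited p values for Ttbk1 and Ttbk2, from a test that is not stated, are 0.571 and 0.412, each with an FDR of 0.987. In GENCODE the exons of Ttbk2 share 3409 bases with Cdan1 on the same strand, so its counts may hold reads of that gene. Ttbk1 made up 56.4% ± 0.973 (SD, n = 5) of the summed TTBK TPM in control mice and 56.6% ± 1.80 (SD, n = 5) in circTau6 mice.

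The MARK kinases, which phosphorylate tau in its microtubule-binding repeats and loosen it from microtubules, had 1 member with 4 of 5 circTau6 libraries above every control. Mark1 had 67.0, 64.8, 66.5, 67.2 and 62.6 CPM in control and 67.4, 67.8, 64.2, 71.9 and 77.3 CPM in circTau6 libraries. Its log2 fold change was 0.09 ± 0.05 (SE) with an unadjusted p of 0.129 in edgeR, and circTau6 replicate 5 was the highest of all. The value was 0.05 without circTau6 replicate 5, at an unadjusted p of 0.362, and 0.11 without circTau6 replicate 3, at 0.0446. The authors' deposited table lists Mark1 with a p of 0.0421 and an FDR of 0.987, the lowest p it gives for any of the 34 genes, and lists 3.06% of all genes under 0.05. Mark2, Mark3 and Mark4 had log2 fold changes of −0.03, 0.0055 and −0.0074. Mark1 held 16.9% ± 0.599 (SD, n = 5) of the MARK total in TPM in control mice and 18.0% ± 1.21 (SD, n = 5) in circTau6 mice, Mark2 29.5% ± 1.71 and 27.7% ± 1.48 (SD, n = 5), Mark3 30.4% ± 1.57 and 31.2% ± 1.51 (SD, n = 5), and Mark4 23.1% ± 0.505 and 23.1% ± 0.788 (SD, n = 5). The ranges of all 4 shares overlapped between the groups.

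Fyn, a tyrosine kinase of the Src family that phosphorylates tau near its amino end and acts at synapses, had 117, 118, 117, 115 and 107 CPM in control and 116, 124, 113, 117 and 115 CPM in circTau6 libraries. The groups overlapped in all but circTau6 replicate 2, and the log2 fold change was 0.03 ± 0.04 (SE) with an unadjusted p of 0.551 in edgeR. It was 0.0019 without control replicate 5, the lowest library, and 0.0056 without circTau6 replicate 2, the highest.

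**Figure D3:**
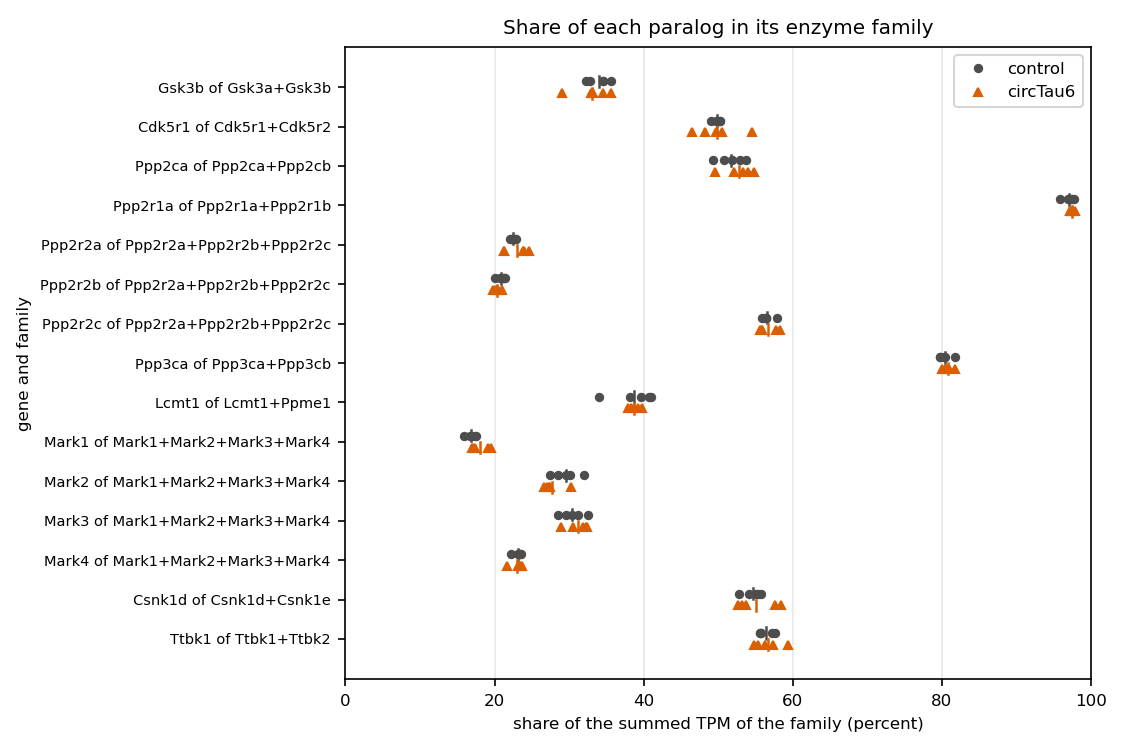
Share of each paralog in the summed TPM of its enzyme family, 1 point per mouse, with short lines at the group means, control as dark circles and circTau6 as orange triangles. All 15 shares overlap between the groups, and the families differ from Ppp2r1a with 97.1% of its pair to Mark1 with 16.9% of its family in control.

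For the PP2A catalytic and scaffold subunits, 0 of 4 genes passed the test and 0 had an unadjusted p under 0.05 in edgeR. Ppp2ca, the alpha catalytic subunit, had a log2 fold change of −0.02 ± 0.04 (SE) with a 95% interval from −6.75% to 4.75%. Its counterpart Ppp2cb had 73.0, 74.3, 72.9, 80.4 and 75.6 CPM in control and 69.5, 79.0, 68.1, 66.3 and 73.9 CPM in circTau6 libraries. In 3 of 5 circTau6 libraries Ppp2cb lay below every control, and the log2 fold change was −0.08 ± 0.06 (SE) with an unadjusted p of 0.187. It was −0.12 without circTau6 replicate 2 and −0.05 without control replicate 4, at unadjusted p values of 0.0464 and 0.408 in edgeR. In counts Ppp2ca was the higher by far, but in the deposited TPM the subunits were close. Ppp2ca held 51.7% ± 1.75 (SD, n = 5) of their summed TPM in control mice and 52.8% ± 2.07 (SD, n = 5) in circTau6 mice. That closeness rests on the transcript lengths behind the deposited TPM, whose annotation is not given. In GENCODE, 2 genes on the opposite strand share 3093 exonic bases with Ppp2ca, and no source used here says whether the counting used strand.

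Of the scaffold genes, Ppp2r1a had 460, 447, 473, 453 and 432 CPM in control and 444, 434, 478, 439 and 453 CPM in circTau6 libraries. The groups covered nearly the same range, and the log2 fold change was −0.01 ± 0.04 (SE). Ppp2r1a made up 97.1% ± 0.725 (SD, n = 5) of the scaffold TPM in control mice and 97.5% ± 0.296 (SD, n = 5) in circTau6 mice. The minor scaffold Ppp2r1b had 9.73 to 13.7 TPM in circTau6 and 11.2 to 19.2 TPM in control libraries, with the highest value in control replicate 5. Its difference depended on the unit, at −0.05 ± 0.10 (SE) on the log2 scale in counts with edgeR and −0.20 in the authors' deposited table, which is built on TPM.

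The regulatory subunits decide what PP2A binds, and the B alpha subunit from Ppp2r2a is the one best known for guiding it to tau. Ppp2r2c, a brain form, was the highest with 467, 497, 483, 466 and 477 CPM in control and 466, 468, 484, 458 and 513 CPM in circTau6 libraries. The log2 fold change of Ppp2r2c was −0.0009 ± 0.04 (SE). Ppp2r2a had a log2 fold change of 0.03 ± 0.05 (SE). Ppp2r2b, which is altered in a human spinocerebellar ataxia, had 92.7, 94.2, 88.6, 88.5 and 91.2 CPM in control and 83.0, 86.5, 86.4, 85.1 and 94.4 CPM in circTau6 libraries. In 4 of 5 circTau6 libraries Ppp2r2b lay below every control, while circTau6 replicate 5 lay above them all, and the log2 fold change of −0.06 ± 0.05 (SE) had an unadjusted p of 0.184 in edgeR. The subunits shared the family TPM as 22.5%, 20.9% and 56.6% for Ppp2r2a, Ppp2r2b and Ppp2r2c in control and as 23.0%, 20.3% and 56.7% in circTau6 libraries.

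The methylation of the PP2A catalytic subunit is set by the methyltransferase LCMT1 and the methylesterase PME-1. Lcmt1 had a log2 fold change of −0.0026 ± 0.06 (SE). Ppme1 had 118, 125, 118, 115 and 134 CPM in control and 115, 121, 120, 123 and 128 CPM in circTau6 libraries, and all circTau6 values lay within the control range. Its log2 fold change was −0.0086 ± 0.05 (SE), with an unadjusted p of 0.865 in edgeR. Lcmt1 held 38.7% ± 2.83 (SD, n = 5) of the summed TPM of the pair in control mice and 38.8% ± 0.757 (SD, n = 5) in circTau6 mice.

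Of the other phosphatases, 0 of 4 passed the edgeR test or had an unadjusted p under 0.05. The calcineurin gene Ppp3cb had 435, 476, 450, 454 and 409 CPM in control and 447, 439, 351, 418 and 431 CPM in circTau6 libraries. Its partner Ppp3ca had 1828, 1927, 2059, 1893 and 1648 CPM in control and 1936, 1863, 1490, 1669 and 1837 CPM in circTau6 libraries. In both genes circTau6 replicate 3 was the lowest of the 10 libraries and the other circTau6 libraries lay within the control range. The log2 fold changes were −0.09 ± 0.06 (SE) for Ppp3cb and −0.09 ± 0.07 (SE) for Ppp3ca, each −0.04 without circTau6 replicate 3. Ppp3ca made up 80.4% ± 0.815 (SD, n = 5) of the calcineurin catalytic TPM in control mice and 80.8% ± 0.631 (SD, n = 5) in circTau6 mice. Ppp1ca, a catalytic subunit of protein phosphatase 1, had 0.02 ± 0.05 (SE), and Ppp5c, which encodes protein phosphatase 5, had 0.06 ± 0.05 (SE) with its highest value in circTau6 replicate 3, and 0.02 without that library.

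A single library carried much of the variation of these genes. In circTau6 replicate 3, 10 of the 34 genes had their lowest and 6 their highest value of the 10 libraries, 47.1% in all, and 44.8% of the 8555 genes at least as abundant did so too, so the list shared this with other genes. The mean size of the deviation from the other 9 libraries was 0.129 on the log2 scale in circTau6 replicate 3, against 0.044 to 0.077 in each of the others. From the mean of the other 9 libraries, Cdk5r1 lay at −24.7%, Gsk3b at −22%, Ttbk2 at −20.9%, Ppp3cb at −20.1%, Ppp3ca at −19.3% and Csnk1a1 at −15.7%. Above that mean were Ppp5c by 14.3%, Cdk5 by 13.3%, Ppp1ca by 12.2% and Mapk3, the ERK1 gene, by 10.1%.

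**Figure D4:**
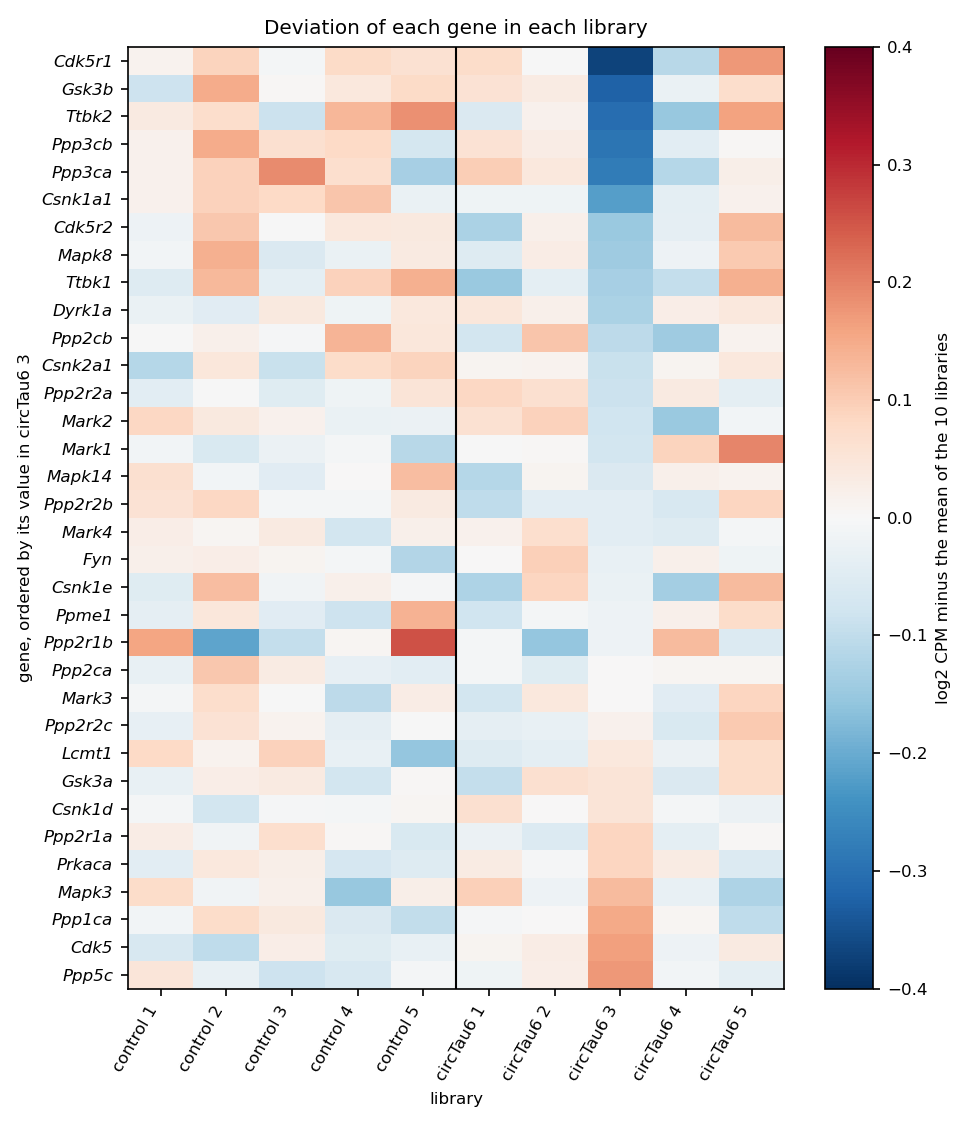
Log2 CPM of each of the 34 genes in each library minus the mean of the 10 libraries, blue for lower and red for higher, with genes ordered by their value in circTau6 replicate 3. That library shows the strongest colours, from Cdk5r1 at the blue end to Ppp5c at the red end.

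The deviations in circTau6 replicate 3 went with transcript base composition. Over the 34 genes the deviation correlated with the GC content of the longest coding transcript at r = 0.49 (Spearman's rho 0.47), as a description of 1 library, against r between −0.38 and 0.10 in the other 9. Over all genes tested with a transcript the value in circTau6 replicate 3 was 0.33, against −0.08 to −0.01 in the others. Genes highest in this library had transcripts with at least 53.4% GC, and those lowest in it had a median of 44.35%, with Cdk5r2 at 63.9% and Cdk5r1 at 54.2% as the exceptions at the GC-rich end. The same library also held the lowest summed neuron markers, 5247 CPM, and the highest summed markers of choroid plexus and meningeal fibroblasts, 5457 and 153 CPM. The part of base composition and of tissue makeup in the deviations was not tested. Without circTau6 replicate 3, the log2 fold changes of the 34 genes ran from −0.09 to 0.11, 30 kept their sign, and 0 passed the edgeR test.

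**Figure D5:**
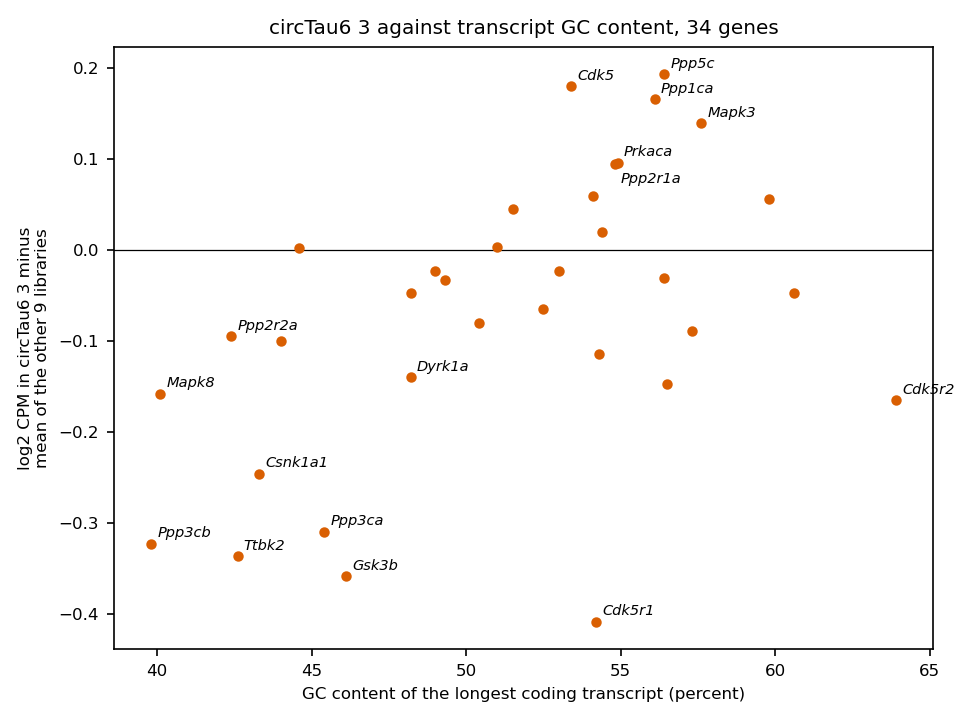
Deviation of each of the 34 genes in circTau6 replicate 3 (log2 CPM minus the mean of the other 9 libraries) against the GC content of its longest coding transcript in percent. Named genes are those lowest or highest in this library among all 10, and lower values sit mostly at lower GC content, r = 0.49.

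Other enzymes and regulators of tau phosphorylation, 62 genes outside the list, were read in the same fit. Of 59 past the filter on low counts, 0 passed the edgeR test, and 2 had an unadjusted p under 0.05, or 3.39% against 4.42% of all genes. Their median log2 fold change was −0.02, beside −0.0002 over all genes, with 16 above and 43 below 0. Why more of them lay below 0 was not tested. The kinases of lowest p were Mapk9, which encodes JNK2, at −0.10 ± 0.04 (SE) with an unadjusted p of 0.0227, Csnk1g1, a casein kinase 1 gamma form, at −0.12 ± 0.05 (SE) with 0.0428, and Prkca, protein kinase C alpha, at −0.11 ± 0.05 (SE) with 0.0554, and edgeR gave all of them an adjusted p of 0.981. Ppp1cc, the gamma catalytic subunit of protein phosphatase 1, had 181.6 to 188.4 CPM in control and 171.6 to 179.7 CPM in circTau6 libraries, so that 5 of 5 lay below every control, as in 0.368% of all genes tested, at −0.07 ± 0.04 (SE) on the log2 scale and an unadjusted p of 0.0881. Ppp3r1, a regulatory subunit of calcineurin, had −0.11 ± 0.06 (SE). Abl1, a tyrosine kinase gene, had 37.1 and 38.2 CPM in control replicates 1 and 4 and 59.7 to 68.1 CPM in the other 8 libraries, with a log2 fold change of 0.29 ± 0.16 (SE).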

How the data were processed

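Hippocampal RNA was depleted of ribosomal RNA, made into strand-specific libraries and sequenced as 150 bp pairs, per the labels' protocols. StringTie 1.3.1 and RSEM are named, with no role, per the submitters' processing notes. Not given in the sources used here are the annotation, the genome build and the aligner. The deposited table holds counts and TPM for each gene and library, per the file headers. Their table also holds group means of TPM, a log2 fold change that its values show to be the log2 ratio of those means, and a p-value and FDR whose test is not stated, all deposited by the authors. Other numeric columns were absent, and no sample was left out.

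The 34 genes and all lists were chosen with earlier results of these data known. Counts were tested as deposited with edgeR 4.0.16 in R 4.3.3: filterByExpr, TMM scaling, a robust quasi-likelihood fit of group over all 10 libraries and Benjamini-Hochberg adjustment over 14396 genes, with a threshold of 0.05. A standard error was taken as the log2 fold change over the square root of F, and 95% intervals use the t distribution of the fit. Intervals and p-values rest on the spread between the mice of a group, moderated by the fit with that of all genes. Shares within families and TPM levels were described without a test. Coordinates and transcript GC content are those of GENCODE M21 (GRCm38), in which 21804 of 21956 gene IDs matched. The test was run on simulated counts first. Alternatives were DESeq2 1.42.0, limma 3.58.1 (voom with quality weights, and a fit of log2(TPM + 1) for genes with a mean of at least 0.5 TPM), other scalings and filters, a replicate block and leaving out libraries.

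Values of every library are printed for genes with an unadjusted p under 0.05, for the gene of lowest p and that of highest TPM in each role, and for Gsk3b, Cdk5r1, Ttbk1, Ttbk2 and Mark1, which were added after their values were seen. Of the 62 other enzymes and regulators the 6 of lowest p are named, and Ptpa was added likewise.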

Additional observations from a re-analysis of the deposited data

Results flagged for a closer look

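Of 98 groups of 5 values examined (34 genes in CPM and 15 shares, in each treatment group), 12 held a library far from the other 4, and chance picks out about 5 in 100. The values of the 34 genes share libraries, so these are not independent. The library of circTau6 replicate 3 accounted for 6 of the 12. It lay below the others of its group in Gsk3b with 193.9 CPM against 238 to 255, in Dyrk1a with 83.93 CPM against 93.0 to 94.5, in Csnk1a1 with 327.2 CPM against 372 to 386 and in Csnk2a1 with 119.8 CPM against 129 to 131. It lay above them in Cdk5 with 64.18 CPM against 56.5 to 58.7 and in Ppp5c with 99.55 CPM against 85.9 to 89.8.

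Control libraries were picked out in 4 cases. Control replicate 4 was low in Mark4, with 79.01 CPM against 83.6 to 85.1, and in the share of Mark4 in the MARK total, with 22.25% against 23.2% to 23.5%. Control replicate 2 was low in Csnk1d, with 126 CPM against 131.7 to 133.2. Control replicate 5 was low in Fyn, with 106.9 CPM against 115 to 118. In the MARK total, circTau6 replicate 1 had a high share of Mark2, 30.31% against 26.6% to 27.4%, and circTau6 replicate 5 a low share of Mark4, 21.7% against 23.2% to 23.7%.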

How the results depend on the processing

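Under 20 other fits, 0 of 34 genes were called in any of them, and the lowest adjusted p was 0.726. Over all genes, the count of calls was 0 with edgeR, 14 with DESeq2, 2 with library totals alone, 2 with no filter, 4 with the replicate block, 3 without the choroid-poor libraries (control replicate 2 and circTau6 replicate 5), 2 at an adjusted p under 0.1, and 0 to 4 when 1 library was left out. The number of the 34 genes with an unadjusted p under 0.05 was 1 with edgeR, 0 with library totals alone, 2 with the replicate block, 3 without the choroid-poor libraries and 0 to 3 when 1 library was left out (0 without control replicate 2, 3 or 4 or circTau6 replicate 4, 2 without circTau6 replicate 2 and 3 without circTau6 replicate 5). The share of all genes under 0.05 was 4.42% in the main edgeR fit. It is not given here for these refits, so their counts cannot be read against it. The 2 genes under the replicate block were Ttbk1 and Ttbk2, with unadjusted p values of 0.0333 and 0.02 and an adjusted p of 0.969 in edgeR. The labels do not say whether equal replicate numbers pair the mice. Same-numbered libraries correlated at −0.076 to 0.136 in their deviations, and 0 of 5 controls correlated best with its own number. Such correlations over all genes cannot settle whether the mice were paired. The median log2 fold change of the 34 genes stayed between −0.0251 and 0.0136 in all fits, and no scaling moved the median of all genes by more than 0.023. The library medians had an SD of 0.0257, which is a spread of single libraries and not the error of a difference between groups.

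Of 680 refitted values, 64 had the other sign from the edgeR value, in 16 genes whose edgeR value was at most 0.0523 in size, and 18 genes kept their sign throughout; the cause was not tested. In limma voom Mark3 had −0.0004 and Csnk2a1 0.0078. With upper-quartile scaling Mark4 had 0.0018, Csnk2a1 0.0038, Ppp2r2c 0.0086, Lcmt1 0.0068 and Ppme1 0.001. With library totals alone Mark4 had 0.0151, Csnk2a1 0.0169, Ppp2ca 0.0063, Ppp2r1a 0.013, Ppp2r2c 0.0221, Lcmt1 0.0206 and Ppme1 0.0142. In log2(TPM + 1) Mapk8 had 0.0574, Mapk14 0.0001, Mark4 0.0057, Csnk1e 0.0276, Ppp2ca 0.0014, Ppp2r1a 0.009, Ppp2r2c 0.0156, Lcmt1 0.0168 and Ppme1 0.0122. Without the choroid-poor libraries Dyrk1a had −0.0185 and Ppp2ca 0.0025. With 1 library left out the values ran from −0.0065 to 0.0337 for Dyrk1a, −0.0392 to 0.0234 for Lcmt1, −0.0637 to 0.0006 for Mapk8, −0.034 to 0.0157 for Csnk2a1, −0.0297 to 0.0087 for Ppp2ca, −0.0286 to 0.0132 for Ppp2r2c, −0.0285 to 0.026 for Ppme1, −0.0256 to 0.0035 for Mark4, −0.0354 to 0.0083 for Ppp2r1a, −0.0118 to 0.0511 for Mapk3, −0.0169 to 0.024 for Mark3, −0.1066 to 0.0106 for Ppp2r1b, −0.015 to 0.0494 for Ppp1ca and −0.0016 to 0.0397 for Gsk3a. The 15 family shares overlapped between the groups in TPM and in CPM.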

Other observations

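Ptpa, which encodes an activator of PP2A, had a log2 fold change of −0.01 ± 0.05 (SE) and was not called by edgeR.

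For some of the 34 genes the deposited TPM and counts gave different group differences. Set against the median gene of each library, TPM per count differed between circTau6 and control by −0.158 on the log2 scale for Ppp2r1b, 0.071 for Mapk8, −0.067 for Mark2 and 0.046 for Csnk1a1, with SDs between libraries of 0.142, 0.068, 0.096 and 0.049. In 0 of the 34 genes were the groups apart in this measure, against 0.496% of 13510 genes with at least 10 counts in every library.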
